A study of Mus musculus with 10 samples.

Results

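The genes described here encode the contractile apparatus of smooth muscle, the cell type of the muscle coats of the gut wall, and were followed in the jejunum of mice lacking Klf9. The list holds 31 genes, taken by name, with 1 probe set for each gene: the one of highest mean signal over all arrays among those annotated to that gene alone. Of the 31, 29 had such a probe set, Pgm5 and Ppp1r12b being without one here, and 26 passed a filter on dim signal. The series holds 12393 genes with a probe set of their own, of which 8290 passed that filter.

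Jejunal RNA of males aged 30 days was hybridized to Affymetrix mouse 430A arrays, 5 from Klf9-/- animals and 5 from wild type animals, each array standing for a single animal by the series' design text. The labelling protocol speaks of RNA pools, so the number of animals behind each array is not certain. Animals of all 10 arrays shared sex and age, and the strain and the deleted part of the gene are not given in the sources used here. Klf9, also called BTEB1, belongs to the Kruppel-like zinc finger proteins that bind DNA and regulate transcription, and the comparison asks how jejunal transcripts differ without it. Nothing in the sources says how much of the muscle coat each piece of jejunum carried. In such bulk RNA, fewer muscle cells and less RNA per muscle cell cannot be told apart.

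Smooth muscle contracts when calcium entering the cell activates myosin light chain kinase, which phosphorylates the regulatory light chain, so that myosin pulls on actin filaments held at dense bodies by alpha-actinin and at the membrane by vinculin and the dystrophin complex. A phosphatase reverses that step. Many of these genes are known targets of serum response factor, encoded by Srf, which binds a short element called the CArG box together with the coactivator myocardin. In the gut wall many of these genes are read mainly from the circular and longitudinal muscle and from the muscularis mucosae, with some also in pericytes and myofibroblasts. Others, such as Myl6, Actn1 and Flna, are expressed in non-muscle cells too.

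Stretches of 4 promoters are shown because they hold CArG boxes upstream of genes described below: Srf, 2 filament genes and Vcl, whose log2 difference was near zero. They were taken from RefSeq promoter sequences of build GRCm38.p6, searched over the 250 bases before each start. CArG boxes are in capitals, the consensus form or a form with a single G or C among its 6 inner letters. The consensus reads as itself on the other strand, so each match covers both strands. Every stretch reads 5′ to 3′ on the strand of its gene, and each gene's region stands in front of it.
Srf promoter, minus strand, chr17:46556185-46556274, with both boxes in the consensus form: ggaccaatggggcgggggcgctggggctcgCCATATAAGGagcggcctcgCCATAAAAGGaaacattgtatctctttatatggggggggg
Acta2 promoter, minus strand, chr19:34255374-34255487, with both boxes in the altered form: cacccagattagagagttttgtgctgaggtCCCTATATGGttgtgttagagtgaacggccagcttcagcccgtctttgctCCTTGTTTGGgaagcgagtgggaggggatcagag
Myl9 promoter, plus strand, chr2:156775273-156775404, with the consensus form before the altered form: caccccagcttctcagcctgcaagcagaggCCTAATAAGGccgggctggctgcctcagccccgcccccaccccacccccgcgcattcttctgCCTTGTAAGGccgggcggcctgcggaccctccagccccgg
Vcl promoter, plus strand, chr14:20929148-20929210, with the consensus form: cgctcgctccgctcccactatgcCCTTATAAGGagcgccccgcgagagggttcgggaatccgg

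A promoter was held for 28 of the 31 genes. Of these 28, 6 had a consensus CArG box in the 250 bases (Srf, Myl9, Myl6, Vcl, Fhl1 and Dmd), where 1.62% of the 27025 genes with a promoter had one. With the altered form included, Acta2 and Pdlim3 joined them to make 8 of 28, against 9.78% of all genes. A match describes the letters and is not a shown binding site. The log2 differences of these 8 genes between knockout and wild type ran from -0.18 (Myl6) to 0.40 (Srf).

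The targeted gene, read on its probe set of highest signal, averaged 549 ± 231 (SD, n = 5) in knockout and 1024 ± 302 (SD, n = 5) in wild type, in units of scaled signal. Klf9 differed by -0.86 ± 0.25 (SE; limma adjusted p = 0.466) on the log2 scale. On the 2 arrays labelled replicate 1 it went against the label, at 944 for knockout and 551 for wild type. A further label of knockout replicate 1 names both genotypes, and groups here follow the sample titles. The other arrays ran from 340 to 526 in knockout and from 964 to 1320 in wild type. Directions below are therefore those of arrays as labelled, and values without both arrays labelled replicate 1 are given beside the tested genes. All 8 defining smooth muscle markers fixed for the check (Acta2, Actg2, Myh11, Tagln, Cnn1, Des, Smtn and Lmod1) passed the signal filter. Of 12 skeletal muscle markers 10 were under it, and Ckm and Acta1 passed.

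Smooth muscle genes were mostly higher on the arrays labelled knockout, by small amounts, and none passed the test. Of the 26 tested genes 24 had a positive log2 difference and 2 a negative one, with a median of 0.20, where 52.5% of all 8290 tested genes were positive and their median was 0.01. On the 17 other tested probe sets of these genes, 12 were positive and the median was 0.07. In limma, which moderates each gene's variance with that of the others, 0 of 26 had an adjusted p under 0.05, as did 0.0% of all 13579 probe sets. At an unadjusted p under 0.05, 6 of 26 (23.1%) were higher and 0 lower. At that level 339 (4.09%) of all 8290 tested genes were higher and 272 lower. Of all probe sets, 3.65% were higher and 4.24% lower. The 26 genes share their arrays and moved together across them, so their count is no count of independent results. The groups were without overlap for 1 of the 26 genes, Srf, with all knockout arrays above all wild type arrays. That order held for 0.844% of all tested genes and 0.766% of all probe sets.

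**Figure D1:**
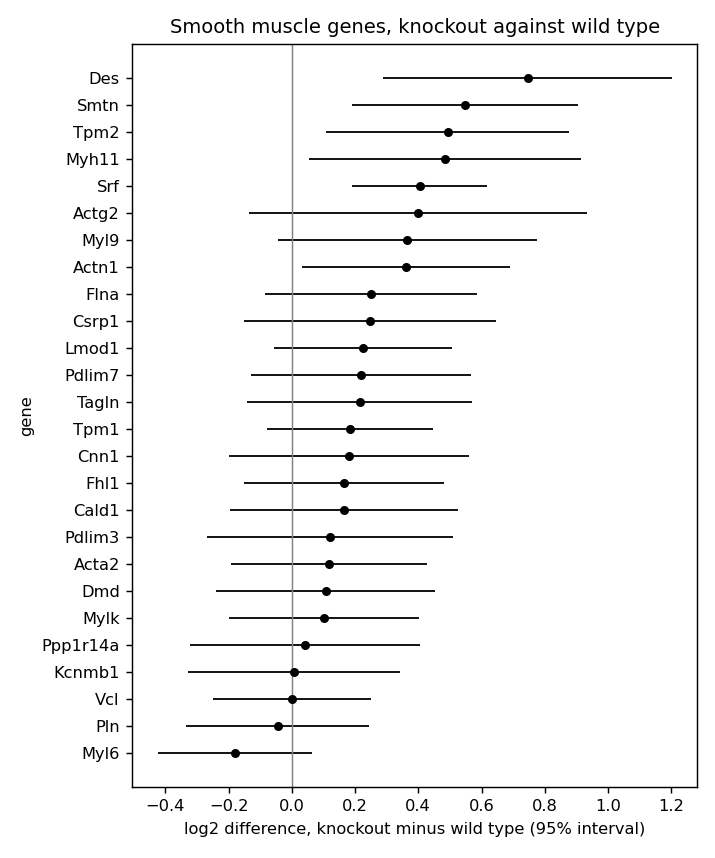
Log2 difference, knockout minus wild type, of each of the 26 tested smooth muscle genes, on the scale of log2(signal + 50). Points are limma estimates from 5 arrays a group and bars their 95% intervals, unadjusted for the number of genes; Des is the highest at 0.75 and Myl6 the lowest at -0.18.

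A score for each array was taken as the mean of the 26 genes' log2 signals, each gene centred on its mean over the 10 arrays. It was 0.28, -0.21, 0.20, 0.30 and 0.0023 on knockout replicates 1 to 5 and -0.47, -0.03, 0.07, 0.12 and -0.26 on wild type replicates 1 to 5. The group means were 0.11 ± 0.21 and -0.11 ± 0.25 (SD, n = 5), a difference of 0.23. The groups overlapped: knockout replicate 2 lay below wild type replicates 2, 3 and 4, and the 2 lowest arrays were wild type replicates 1 and 5. As the members were chosen with earlier results known, no p is given for the score. Without wild type replicate 1 the difference was 0.14, and without both arrays labelled replicate 1 it was 0.10, with 18 of 26 genes higher.

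**Figure D2:**
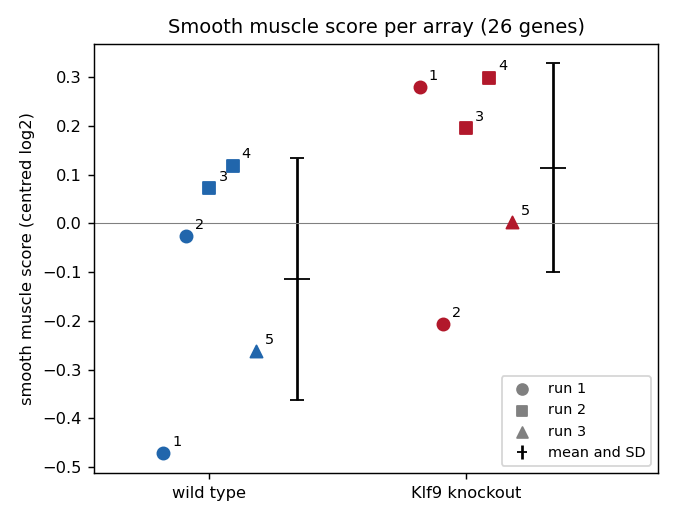
Smooth muscle score of each array (mean centred log2 signal of 26 genes), with the replicate number beside each point and the run as its shape. Black bars give the mean and SD of each group; the highest wild type array, at 0.12, lies above knockout replicates 2 and 5, at -0.21 and 0.0023.

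Much of the variation lay between arrays of the same label. Wild type replicate 1 was among the 3 lowest arrays for 24 of 26 genes, wild type replicate 5 for 20 and knockout replicate 2 for 17, with wild type replicate 2 next at 8. For 13 genes these 3 arrays were the 3 lowest, among them Acta2, Actg2, Myh11, Myl9, Tagln, Cald1 and Mylk. Myl6 had none of the 3 among its lowest arrays, and Pln and Srf had 1 each. The highest array was knockout replicate 1 for 10 genes and knockout replicate 4 for 9. The highest signal of a gene over its lowest among the 10 arrays ranged from 1.38 times for Vcl to 3.58 times for Des, with a median of 1.94.

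**Figure D3:**
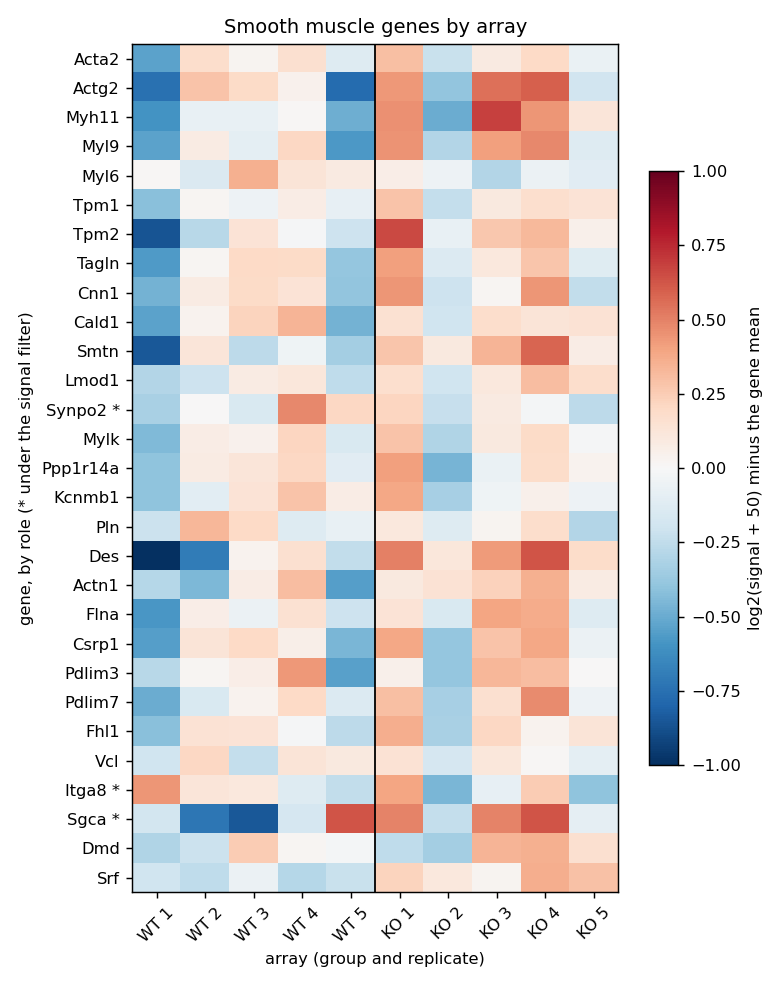
Log2(signal + 50) of each measured smooth muscle gene (rows, by role) on each array (columns), centred on the gene's mean and drawn on a colour scale that stops at 1 in either direction. Wild type replicates 1 and 5 and knockout replicate 2 are low for most rows, and the 3 genes marked with a star were under the signal filter.

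Runs, here arrays whose recorded hybridization times lie close together, and fluidics modules were set beside these values. Each of the 3 runs was balanced between labels, with 2 arrays a label in runs 1 and 2 and a single one in run 3. The score differed by 0.29, 0.15 and 0.26 within runs 1, 2 and 3. Modules 1 and 2 held knockout arrays only (2 each) and module 3 wild type arrays only (3), so module and label cannot be told apart there. Of the 4 modules, module 4 alone was mixed (1 knockout, 2 wild type), and the value it gives for the score was -0.04. In that module Srf differed by 0.56 and Des by 0.45, while Acta2, Actg2 and Cnn1 differed by -0.23, -0.36 and -0.35.

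Filament and motor genes were higher for 6 of 7, with a median log2 difference of 0.37. Tpm2, the beta-tropomyosin that lies along the actin filament, had signals of 10386, 6238, 7927, 8213 and 6799 on knockout replicates 1 to 5. On wild type replicates 1 to 5 it had 3579.7, 5401, 7212, 6492 and 5667. Wild type replicate 1 was lowest and knockout replicate 1 highest, and knockout replicates 2 and 5 lay within the wild type range. The log2 difference was 0.49 ± 0.18 (SE; limma adjusted p = 0.524), and without both arrays labelled replicate 1 it was 0.23. Of the other tested probe sets of Tpm2, the brighter gave 0.45 ± 0.15 (SE) and the dimmer 0.01 ± 0.13 (SE).

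Myh11, the smooth muscle myosin heavy chain, had signals of 2929, 1487, 3427, 2888 and 2304 in knockout and 1381, 2011, 2010.5, 2136 and 1497 in wild type, in replicate order. Of the 5 knockout arrays 4 lay above every wild type array, and replicate 2 was in the range of the lowest wild type arrays. Its log2 difference was 0.48 ± 0.20 (SE; limma adjusted p = 0.580). It was 0.34 without both arrays labelled replicate 1.

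Myl9, the regulatory light chain that the kinase phosphorylates, had signals of 5344, 3172, 5193, 5453 and 3573.5 in knockout and 2681, 4143.5, 3644, 4501 and 2607 in wild type. Its groups overlapped, with knockout replicates 2 and 5 below wild type replicates 2, 3 and 4, and the log2 difference was 0.37 ± 0.19 (SE; limma adjusted p = 0.664). It was 0.21 without both arrays labelled replicate 1. Actg2, the gamma actin of enteric smooth muscle, followed the same arrays with a wider swing, from 2335.5 on wild type replicate 5 to 6108 on knockout replicate 4. It differed by 0.40 ± 0.25 (SE), with a 95% interval from -0.14 to 0.93, and by 0.20 without both of those arrays.

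Acta2, the alpha smooth muscle actin, differed by 0.12 ± 0.14 (SE), with an interval from -0.19 to 0.43, and its direction turned to -0.06 without both arrays labelled replicate 1. The suffix of its probe set marks probes that can match more than 1 transcript. Tpm1, the alpha-tropomyosin, differed by 0.18 ± 0.12 (SE), and by 0.23 ± 0.20 and -0.15 ± 0.13 (SE) on its other probe sets. Leaving out the same arrays brought it to 0.05. Myl6, the essential light chain shared by smooth muscle and non-muscle myosin, was lower at -0.18 ± 0.11 (SE), and at -0.24 without both arrays. Other probe sets that read Myl6 are annotated to further genes as well and were not used.

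**Figure D4:**
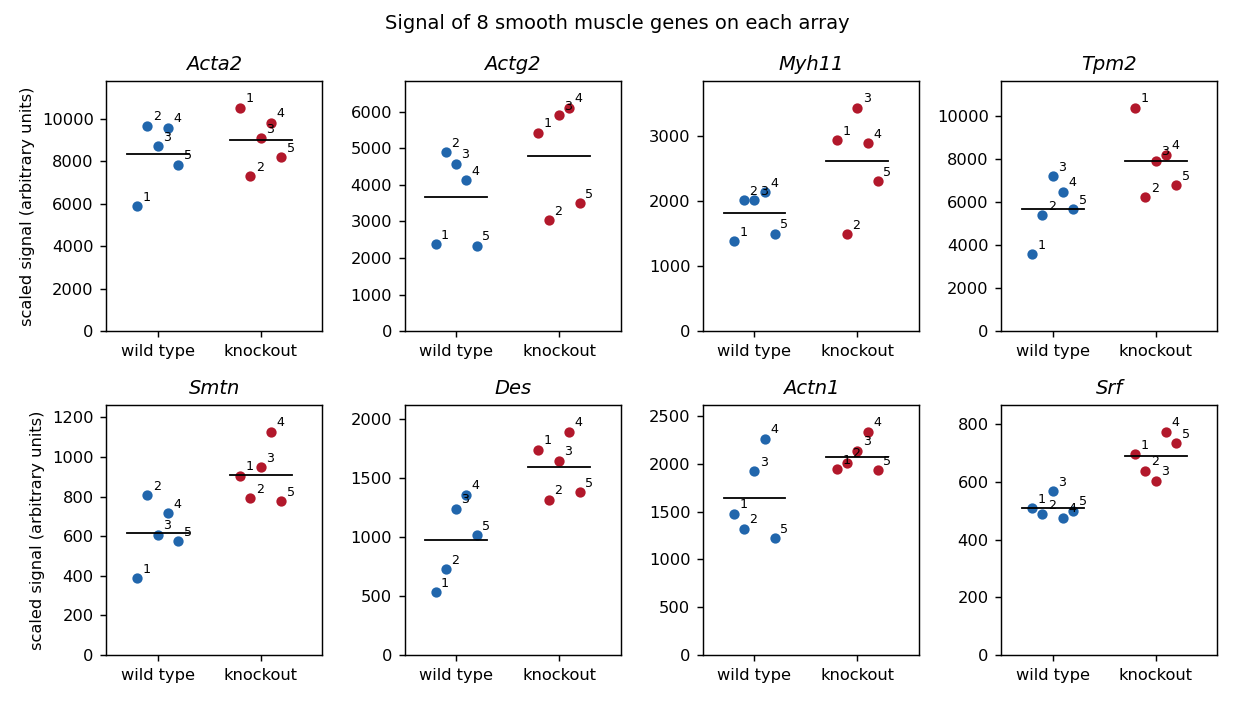
Scaled signal of 8 smooth muscle genes on each array, wild type in blue and knockout in red, with replicate numbers beside the points and a line at each group mean, and axes that start at 0. Srf alone has no overlap, from 605 to 775 in knockout against 476 to 567 in wild type.

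Regulators and bundlers of the thin filament were higher for 5 of 5 tested genes, with a median of 0.21. Smtn, smoothelin of contractile smooth muscle, had signals of 906, 793, 949, 1129 and 778 in knockout. In wild type they were 388, 807, 607, 715 and 573.5. The lowest knockout array lay above every wild type array but replicate 2. The log2 difference was 0.55 ± 0.17 (SE; limma adjusted p = 0.466), and 0.40 without both arrays labelled replicate 1.

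Lmod1, leiomodin, which nucleates actin filaments, was dim, at 193, 138, 182, 218 and 194 in knockout and 126, 137, 179, 183 and 131 in wild type. Knockout replicates 2 and 3 lay within the wild type range, and the difference was 0.22 ± 0.13 (SE), or 0.16 without both arrays labelled replicate 1. Tagln, transgelin or SM22, an actin-bundling protein, had 4953, 3361, 3998, 4493 and 3408 in knockout and 2491, 3759.5, 4270.2, 4248.5 and 2826 in wild type. These overlapped widely, with a difference of 0.21 ± 0.17 (SE) that came to 0.02 without both arrays labelled replicate 1. Cnn1, calponin, and Cald1, caldesmon, which restrain the myosin ATPase, differed by 0.18 ± 0.18 and 0.16 ± 0.17 (SE). Without both arrays labelled replicate 1 they came to -0.0020 and 0.03. The other probe sets of Cald1 gave -0.10 ± 0.27 and 0.03 ± 0.17 (SE). Synpo2, an actin-bundling protein of the Z-disc and dense body, was under the filter, with signals of 83.4 to 136 in knockout and 77.7 to 173 in wild type.

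Genes that set the state of the light chain or of calcium stood near zero, 3 of 4 positive with a median of 0.02, and 0 of 4 positive without both arrays labelled replicate 1. Mylk, the myosin light chain kinase, had signals of 7425, 4936, 6512, 6951 and 6048 in knockout and 4480, 6420, 6284.5, 7090 and 5480 in wild type. It differed by 0.10 ± 0.14 (SE), with an interval from -0.20 to 0.40, and its other probe sets gave 0.15 ± 0.12 and 0.10 ± 0.22 (SE). Without both of those arrays it turned to -0.05. Pln, phospholamban, which restrains the calcium pump of the sarcoplasmic reticulum, had 255, 210.2, 239, 271 and 182 in knockout and 195, 307, 277, 209 and 220.4 in wild type. Its probe sets went different ways, at -0.04 ± 0.13, 0.17 ± 0.14 and -0.19 ± 0.11 (SE), and the value of -0.04 came to -0.14 without both arrays.

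Ppp1r14a, the phosphatase inhibitor known as CPI-17, had 188, 79.1, 121, 153 and 133 in knockout and 85.4, 139, 144, 156 and 115 in wild type. Its mean over all arrays, 131, was near the filter's limit of 123, and it differed by 0.04 ± 0.17 (SE). Kcnmb1, the beta subunit of the large-conductance potassium channel, differed by 0.01 ± 0.16 (SE). Without both arrays labelled replicate 1 these genes turned to -0.15 and -0.19.

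Intermediate filament, Z-disc and LIM domain genes were higher for 7 of 7, with a median of 0.25. Des encodes desmin, the intermediate filament of muscle, and had the highest difference among the 26 genes. Its signals were 1740.3, 1316, 1646, 1895 and 1382 in knockout. In wild type they were 530, 727, 1241, 1359 and 1014. Wild type replicate 4 alone reached into the knockout range, above knockout replicate 2, and wild type replicates 1 and 2 were lowest. The log2 difference was 0.75 ± 0.21 (SE; limma adjusted p = 0.466), or 1.68 times on the scale of signal plus 50.

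The Des value depended on the arrays and the probe set. It was 1.22 within run 1 and 0.43 within each of runs 2 and 3, and 0.53 without both arrays labelled replicate 1. Another Des probe set of low signal, at 180.0 on average, gave -0.09 ± 0.13 (SE). Set against the mean of the other 25 tested genes on the same array, Des stood at 0.19 to 0.34 in knockout and at -0.70 to 0.04 in wild type, a difference of 0.54. It was the only one of 26 genes whose groups did not overlap on that measure, for which no share over all genes was computed. This is a description, chosen after the values were seen.

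Actn1, alpha-actinin, which ties actin filaments at dense bodies and in non-muscle cells too, had signals of 1944, 2011, 2136, 2338.5 and 1932 in knockout and 1479, 1320, 1922, 2262 and 1223.5 in wild type. The lowest knockout array lay above 4 of 5 wild type arrays. It differed by 0.36 ± 0.15 (SE; limma adjusted p = 0.603), and by 0.24 ± 0.20 and 0.0053 ± 0.12 (SE) on its dimmer probe sets. It was 0.36 without both arrays labelled replicate 1 as well.

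Flna, filamin A, a broadly expressed actin crosslinker, had 1614, 1310.4, 1932, 1908 and 1328 in knockout and 961, 1533.5, 1401.5, 1627 and 1254 in wild type. The groups overlapped, and the difference was 0.25 ± 0.16 (SE), or 0.13 without both arrays labelled replicate 1. The LIM domain genes Csrp1, Pdlim3, Pdlim7 and Fhl1 differed by 0.25 ± 0.19, 0.12 ± 0.18, 0.22 ± 0.16 and 0.17 ± 0.15 (SE). The other probe sets of Csrp1 and Pdlim7 gave 0.16 ± 0.21 and 0.15 ± 0.14 (SE). On the chosen probe sets all 4 genes were between 0.01 and 0.08 without both arrays labelled replicate 1.

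Of the genes that anchor the apparatus to the membrane, Vcl and Dmd were tested. Vcl, vinculin, had signals of 1401, 1117, 1373, 1274 and 1176 in knockout and 1094, 1468, 1062, 1388 and 1353 in wild type, with the groups interleaved. Its difference was 0.0012 ± 0.12 (SE), with an interval from -0.25 to 0.25, and -0.08 without both arrays labelled replicate 1. Dmd, dystrophin, had 176, 162, 289, 293 and 251 in knockout and 168, 181, 270.2, 222 and 214 in wild type. It differed by 0.11 ± 0.16 (SE), and by -0.17 ± 0.15 (SE) on another probe set, and by 0.12 without both of those arrays. Sgca, a sarcoglycan, and Itga8, the integrin alpha 8 chain, were under the filter, at 65.7 to 161 and 27.6 to 90.3 in knockout and 25.8 to 161 and 39.9 to 95.3 in wild type.

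Srf had the lowest p of the 26 genes. Its signals were 697, 639, 605, 775 and 735.5 in knockout and 510.0, 487.5, 567, 476 and 500.3 in wild type. Every knockout array lay above every wild type array, including both arrays labelled replicate 1. The log2 difference was 0.40 ± 0.10 (SE; limma adjusted p = 0.441), with an interval from 0.19 to 0.62. It was 0.39, 0.37 and 0.51 within runs 1, 2 and 3, and 0.40 without both arrays labelled replicate 1. Its other probe set, with signals of 383 to 609 in knockout and 329 to 531 in wild type, gave 0.07 ± 0.14 (SE).

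Across arrays Srf did not follow the other genes in order. Its knockout replicates 5 and 2, at 735.5 and 639, were not its lowest there, although the score of these arrays was 0.0023 and -0.21. Wild type replicates 3 and 4, where the score was 0.07 and 0.12, had Srf signals of 567 and 476.

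Partners and early targets of serum response factor were split. Of 16 such genes 11 were tested, with 7 higher, 4 lower, 0 past the adjusted threshold and 0 at an unadjusted p under 0.05, and a median of 0.06. Ccn1, an early matricellular gene, differed by 0.21 ± 0.13 (SE), Mrtfa, a coactivator that responds to free actin, by -0.15 ± 0.10 (SE) and Actg1, the cytoplasmic gamma actin, by -0.16 ± 0.11 (SE). Myocd, which encodes myocardin and was singled out for that role, differed by 0.20 ± 0.19 (SE).

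Calcium entry, store and muscarinic genes had 5 of 9 higher, with a median of 0.02. Of the 9, 1 was lower at an unadjusted p under 0.05, as were 4.24% of all probe sets. Orai1, a store-operated calcium channel, differed by -0.29 ± 0.11 (SE; limma adjusted p = 0.543), Gnaq, a G protein subunit, by -0.30 ± 0.14 (SE) and Stim1, the calcium sensor of the store, by -0.23 ± 0.13 (SE). Costamere, dystrophin complex and focal adhesion genes outside the list had 15 of 16 higher, with a median of 0.08. Cavin1 and Cav1, of membrane caveolae, differed by 0.26 ± 0.12 and 0.23 ± 0.11 (SE), and Parva, parvin alpha, by 0.31 ± 0.15 (SE). Neither of these lists had a gene past the adjusted threshold.

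Markers of other cells in the gut wall were read in the same way. Sums here and below cover all measured genes of a list, also those under the filter, while counts cover the tested ones. Summed signals of 13 fibroblast and matrix genes ran from 17129 to 25077 in knockout and from 18355 to 23314 in wild type, with 8 of 13 higher and knockout replicate 2 the lowest array. Summed pericyte markers ran from 3881 to 4639 and from 3813 to 5615, with 2 of 6 higher and wild type replicate 1 the lowest. Enteric neuron and glia genes were 4 of 8 higher, 1 of them at an unadjusted p under 0.05. At that level 3.65% of all probe sets were higher. The sums of neuron and glia genes ran from 1683 to 2903 and from 1992 to 2764. Of the interstitial cells of Cajal, the gut pacemaker cells, Kit and Gja1 were tested and differed by 0.07 ± 0.14 and 0.20 ± 0.12 (SE).

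Fat cell genes were 6 of 6 higher, 3 of them at an unadjusted p under 0.05, with a median of 0.57. At that level 3.65% of all probe sets were higher and 4.24% lower. Sums of the fat cell genes ran from 2591 to 5402 in knockout and from 1158 to 5084 in wild type. The lowest array was wild type replicate 3, on which the smooth muscle score was 0.07. The 2 tested skeletal muscle markers, Ckm and Acta1, differed by 0.19 ± 0.11 and 0.20 ± 0.15 (SE), and Upk3b, the single tested mesothelial marker, by 0.24 ± 0.21 (SE). Endothelial genes were 0 of 6 higher, with 2 lower at an unadjusted p under 0.05 and a median of -0.23. Epithelial genes were 3 of 10 higher, 1 of them at an unadjusted p under 0.05, and the median of all 10 was -0.09. Their sums ran from 98600 to 127683 in knockout and from 95665 to 146200 in wild type. No marker of these lists passed the adjusted threshold, and the part of other cells in the smooth muscle values was not tested.

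**Figure D5:**
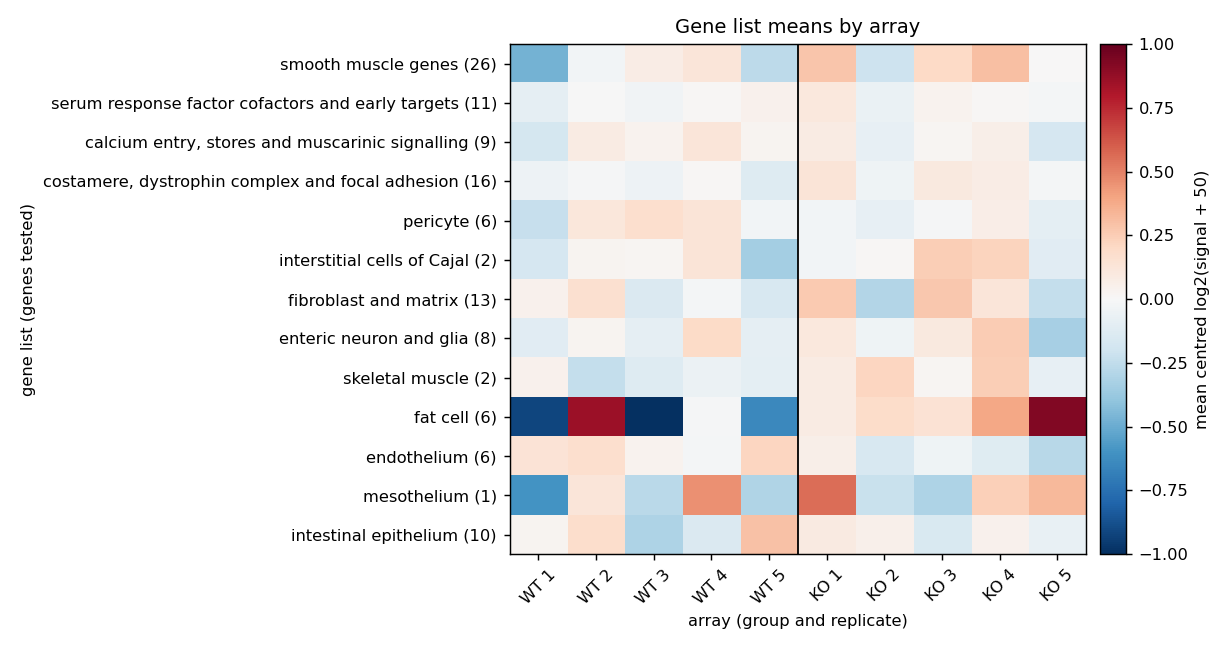
Mean centred log2 signal of the 26 smooth muscle genes and of 12 other gene lists (rows, with the number of genes tested) on each array (columns), on a colour scale that stops at 1 in either direction. Smooth muscle genes are low on wild type replicates 1 and 5 and knockout replicate 2, whereas fat cell genes are lowest on wild type replicates 1 and 3.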

How the data were processed

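Linear signal intensities per probe set were deposited by the authors, quantified with MAS 5.0 per the series' design text. In the deposited values every array had a 2% trimmed mean of about 500, and each array was scaled to exactly 500 here, which moved signals by at most 0.0403%. Log2(signal + 50) was taken, so fold changes of dim genes are understated. Of 22690 probe sets, 64 controls were left out, as was the filter's lower 40% (mean signal up to 123). Probe sets of Klf9 were kept at any signal. The 13579 kept were tested with limma 3.58.1 (R 4.3.3), two-sided, with a mean-variance trend and Benjamini-Hochberg adjustment at 0.05. Groups came from sample titles, as a further label of knockout replicate 1 names both genotypes. Symbols came from the platform annotation. Runs were inferred from gaps of over 30 minutes between recorded hybridization times. The number of arrays, 5 a group, limits precision. The labelling protocol speaks of RNA pools, so p-values measure the spread between arrays. Array signals give no read depth. Members and lists were chosen with earlier results of these data known.

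Full values are given for up to 3 genes of lowest p in each role and for Srf, and up to 3 genes of lowest p are named from each other list. Results of 1 further list are not reported here. Other genes were named after their values were seen. The fit was tested on simulated data. Alternatives were offsets of 1, 16 and 100, no filter or a 60th percentile, deposited, quantile or cyclic loess values, other variance models, array weights, blocks, other summaries of probe sets or members, and arrays left out.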

Additional observations from a re-analysis of the deposited data

Results flagged for a closer look

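Among 60 groups of 5 arrays (29 genes and the score, in each label), 1 sample lay far from the others of its label by Dixon's criterion for 5 samples, where chance flags about 1 group in 20. It was Cald1, caldesmon, on knockout replicate 2, at a log2 signal of 10.7 where the other knockout arrays ran from 10.99 to 11.04. That array was also the lowest knockout array of the smooth muscle score.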

How the results depend on the processing

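No smooth muscle gene passed the adjusted threshold under any of 26 alternatives, and 10 of 26 genes kept their sign in all that tested them, among them Des (0.33 to 0.88), Srf (0.24 to 0.56), Smtn (0.03 to 0.65), Tpm2 (0.20 to 0.59) and Myh11 (0.15 to 0.67). The lowest adjusted p under any alternative was 0.270, for Srf. The score differed by 0.10 to 0.31 with arrays left out, with 18 to 25 genes higher. It was 0.20 as a median over genes, 0.65 in SD units, 0.22 with all 29 genes and, added after seeing the data, 0.18 without Des, Smtn and Srf. With the fluidics module as a block, where 1 knockout array informs the value, it was -0.044 with 10 genes higher. In that fit Acta2 differed by -0.23, Actg2 by -0.36, Myl9 by -0.27, Tagln by -0.23, Cnn1 by -0.35, Cald1 by -0.039, Mylk by -0.16, Ppp1r14a by -0.11, Kcnmb1 by -0.14, Flna by -0.24, Csrp1 by -0.15, Pdlim3 by -0.22, Pdlim7 by -0.071 and Vcl by -0.27. Vcl was -0.016 with quantile and -0.023 with cyclic loess normalization, array weights gave -0.065 for Vcl, -0.048 for Ppp1r14a and -0.086 for Kcnmb1, and the mean over probe sets gave -0.031 for Dmd. The cause of these changes was not tested, and outside module 4 module and label cannot be told apart.

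With arrays left out, Acta2 ranged from -0.061 to 0.19, Cnn1 from -0.0020 to 0.27, Mylk from -0.053 to 0.19, Pdlim3 from -0.00067 to 0.25, Pln from -0.14 to 0.032, Ppp1r14a from -0.15 to 0.16, Kcnmb1 from -0.19 to 0.091 and Vcl from -0.084 to 0.054. Over all probe sets 0 to 9 passed with arrays left out (9 without both arrays labelled replicate 1, 5 without knockout replicate 1, 3 without knockout replicate 5, 1 without wild type replicate 1), 3 with array weights and 1 with the mean over probe sets, where 0 smooth muscle genes were without overlap. Genes without overlap numbered 1 to 4 with arrays left out: 4 without knockout replicate 2, 3 without wild type replicate 4 and 2 without wild type replicate 2. In the same fits 141, 191 and 178 of all 13579 probe sets had all knockout arrays above all wild type arrays, beside 104 with every array. With the mean over probe sets, 73 of 9399 had that order. Replicate numbers were not taken as pairs, since the labels name nothing that same-numbered arrays share. In their deviations same-numbered arrays correlated at 0.18, 0.03, 0.28, 0.12 and -0.12. Yet 3 of 5 knockout arrays correlated best with the wild type array of their own number, and same-numbered arrays lie in the same run. A pairing is therefore not excluded. With the replicate block 0 probe sets passed and the score differed by 0.23. The dimmest genes are limited by signal near the filter.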
